A study of Mus musculus with 6 samples.

Results

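Transcripts of 39 genes of fatty acid, sphingolipid and glycerolipid synthesis were followed in the sciatic nerve of 14-day-old mice, in which Schwann cells are laying down myelin. The genes were chosen by name from textbook pathways, with earlier results of these data known. Each of the 39 symbols matched 1 Ensembl gene ID among the 55335 IDs of the deposited expression table. They comprised 8 genes of fatty acid synthesis and its regulators, 9 fatty acid elongases and desaturases, 3 acyl-CoA ligases, 14 genes of sphingolipid synthesis and 5 of glycerolipid synthesis. The icKO nerves (n = 3, labelled cko) came from mice of genotype RhoAfl/fl ChATCreERT2+, in which the choline acetyltransferase gene Chat drives a drug-inducible Cre recombinase, so that motoneurons of the spinal cord and other cholinergic cells make it. The control nerves (n = 3, labelled flox) came from RhoAfl/fl mice, which carry the same homozygous floxed allele of the small GTPase gene RhoA, with no Cre in the labelled genotype. The tissue was whole nerve lysate from which polyadenylated RNA was sequenced, and it holds the axons but not the cell bodies of those motoneurons. Chat was at most 0.0123 FPKM in any library. The labels give neither the induction schedule nor whether control mice received the inducing drug, and they do not say whether each library of a genotype stands for another mouse.

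Myelin is a lipid-rich membrane, and a Schwann cell that builds it makes much of that lipid itself. Cytosolic acetyl-CoA is carboxylated to malonyl-CoA and assembled by fatty acid synthase, and the product is then lengthened by elongases, desaturated, and activated as acyl-CoA. Acyl-CoA enters glycerolipids through acyltransferases, or sphingolipids through serine palmitoyltransferase and the ceramide synthases. Ceramide receives galactose to form galactosylceramide and its sulphated form sulphatide, the lipids most characteristic of myelin, or receives glucose or phosphocholine to form glucosylceramide or sphingomyelin. Fat cells, which also lie along the nerve, use the same fatty acid and triglyceride enzymes.

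Values are FPKM, fragments per kilobase of transcript scaled to the mapped fragments of the library, so levels of different genes can be compared per length. The depth, estimated from the smallest steps of the values, was 17800000 to 19500000 fragments in icKO and 17200000 to 20600000 in control libraries. All 39 genes passed the filter for testing, a mean of at least 1 FPKM over the 6 libraries. Differences are icKO minus control in units of log2(FPKM + 1), where the added 1 makes the change of weakly expressed genes look smaller, and a gene was called at a Benjamini-Hochberg adjusted p under 0.05 in limma over all 12860 genes tested. A gene is said to have risen or fallen in icKO nerves only where it was so called. Control replicate 2 came from a female and the other 5 libraries from males, by Xist and Ddx3y. The summed level of 20 skeletal muscle markers was 38.2, 55.5 and 1690 FPKM in icKO replicates 1 to 3, against 1560, 313 and 423 FPKM in control replicates 1 to 3, so icKO replicate 3 and control replicate 1 stood apart in muscle transcripts. Rhoa itself was at 33.2 to 36.4 FPKM in icKO and 36.5 to 39 FPKM in control libraries (limma adjusted p = 0.195), a value over the whole gene in which the floxed part was not read separately.

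Genes of fatty acid supply were lower in icKO nerves at most steps, while the shares of sphingolipid genes that fell (28.6%) and rose (21.4%) lay near those of all tested genes. Of the 39 genes, 19 fell, 5 rose and 15 did not pass the test. The genotypes differed widely, with 42.9% of all tested genes called, 22.1% lower and 20.8% higher, and the shares among the 39 genes were 48.7% lower and 12.8% higher. A fall of at least 1 on the log2 scale was found for 12 of the 39, against 4.07% of all tested genes, and a rise of that size for Elovl4 alone, against 3.52%. Among the 20 genes of fatty acid synthesis, elongation, desaturation and activation, 13 fell and 2 rose, with a median difference of -1.02. Among the 19 sphingolipid and glycerolipid genes, 6 fell and 3 rose, with a median of -0.11, and the median of all tested genes was -0.01. The groups did not overlap for 24 of the 39 genes (61.5%), close to the 57.2% of all tested genes; icKO was lower in 19 of them, against 28.9% of all tested genes, and higher in 5, against 28.4%. In lysate, fewer cells of a type and less RNA per cell cannot be told apart.

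**Figure D1:**
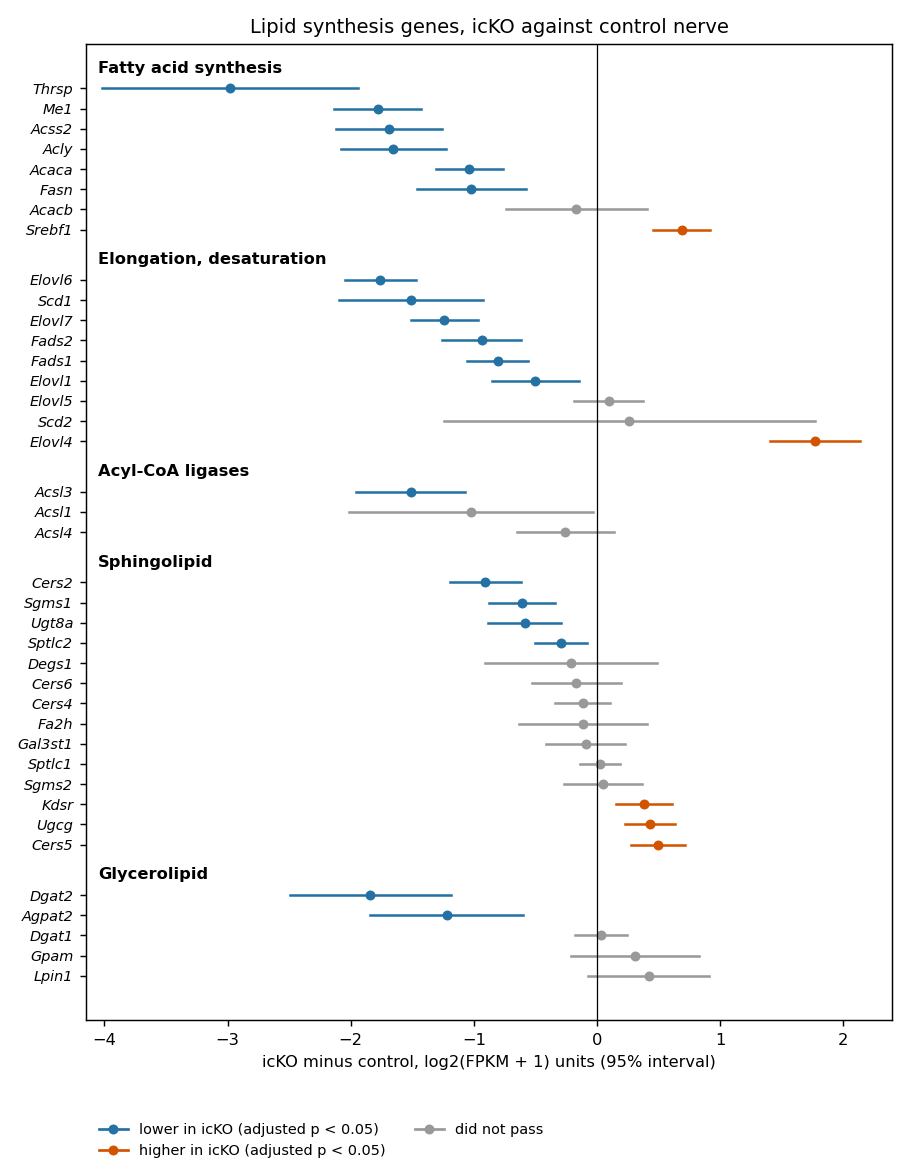
Difference between icKO and control nerves for the 39 genes, grouped by role, on the log2(FPKM + 1) scale (x axis), with the 95% interval of the limma fit as a line (n = 3 each). Blue points mark the 19 genes that fell, orange points the 5 that rose and grey points the 15 that did not pass. The blue points lie mostly in the groups of fatty acid synthesis, elongation and desaturation.

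Among the lists of cell type markers of the nerve, those of fat cells fell most often with all libraries. Counts of markers with all libraries are read against the 22.1% of all tested genes that fell and the 20.8% that rose. When single libraries were left out, 1871 to 2942 genes fell in all, of 12796 to 12888 tested. Of 13 tested adipocyte markers in a list of 14, none of them among the 39 genes, 12 fell (92.3%) and Cebpa did not pass. Pparg also stands among the regulators of lipogenesis. The summed level of the list was 118 to 192 FPKM in icKO libraries, against 502 to 607 FPKM in control libraries. Adipoq, the fat cell hormone adiponectin, was at 9.79, 6.12 and 13.0 FPKM in icKO, against 45.9, 50.1 and 52.8 FPKM in control, and no marker of the list was at 0 in all libraries. Cidea, the member that did not reach the filter, was at 0.30, 0.81 and 1.14 FPKM in icKO and 0.10, 0.04 and 0.17 FPKM in control. The part of fat cells in the falls of Thrsp, Scd1, Dgat2, Agpat2 and the other fatty acid genes was not tested. Of 11 fibroblast markers 5 fell (45.5%) and 2 rose (18.2%), with a median difference of -0.56. Without control replicate 1, 8 of them fell, and without icKO replicate 3, 4 fell. Only 3 fell when icKO replicate 1 or 2, or control replicate 2 or 3, was left out singly. Lum, the matrix proteoglycan lumican, had the widest fall of this list (-2.703). It was at 27.4, 22.8 and 36.2 FPKM in icKO, against 105, 245 and 265 FPKM in control. Differences in the list reached 1.182 in the other direction, and Pdgfra was among the 2 markers that rose. The 9 tested macrophage markers missed the threshold with all libraries (limma, unadjusted p 0.0935 to 0.819), and 8 of them fell without control replicate 1. Of 7 endothelial markers 3 fell (42.9%) and 1 rose (14.3%), and of 6 perineurial markers 1 fell and 1 rose (16.7% each). The part of these cell types in the lipid gene differences was not tested either. Of 14 myelinating Schwann cell markers 3 fell and 3 rose (21.4% each), near the shares of all tested genes, and 8 did not pass. Their summed level was 33000 to 37800 FPKM in icKO and 31700 to 33200 FPKM in control. Their median difference was -0.03 and the difference of their mean levels 0.06, while single markers ranged from -1.865 to 1.19. Of 19 tested skeletal muscle markers 1 fell (5.26%) and 18 did not pass, with a median difference of -2.18. Without icKO replicate 3, 12 of the 14 muscle markers then tested fell.

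**Figure D2:**
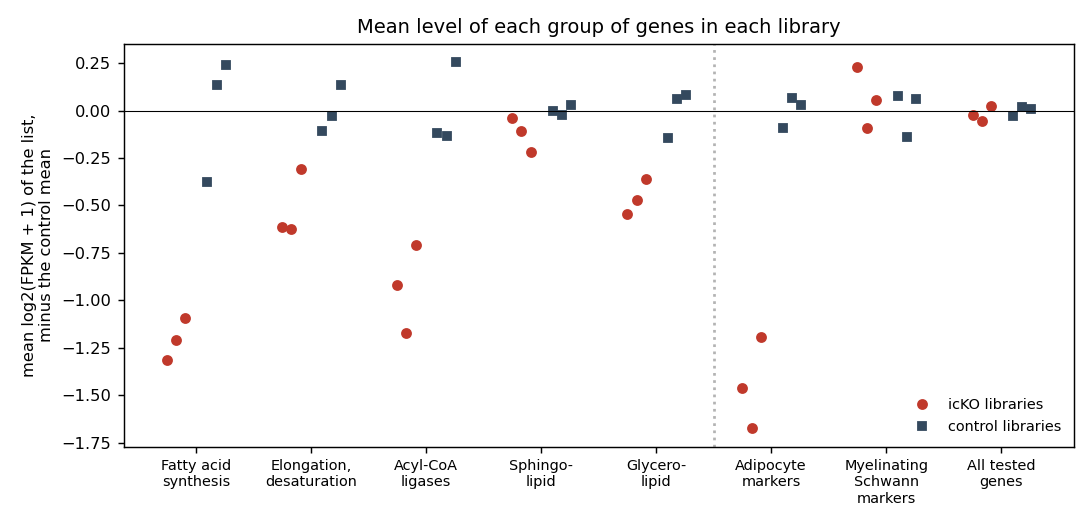
Mean log2(FPKM + 1) of the tested genes of each group in each library, minus the mean of the 3 control libraries (y axis), for 5 groups of lipid genes, 2 lists of cell type markers and all tested genes. Red circles are icKO and dark squares control libraries. The icKO means lie lower by 1.21 for fatty acid synthesis, 0.51 for elongation and desaturation, 0.93 for acyl-CoA ligases, 0.12 for sphingolipid genes, 0.46 for glycerolipid genes and 1.44 for adipocyte markers.

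The enzymes that supply acetyl-CoA and reducing power for fatty acid synthesis fell. Acly, the ATP-citrate lyase that makes cytosolic acetyl-CoA from citrate, was at 21.6, 21.7 and 20.8 FPKM in icKO nerves, against 51.6, 76.9 and 84.1 FPKM in control nerves. Acss2, which makes acetyl-CoA from acetate, was at 2.96, 3.8 and 2.39 FPKM in icKO, against 9.40, 12.9 and 14.1 FPKM in control. Me1, the cytosolic malic enzyme that provides NADPH, was at 14.9, 13.5 and 16.6 FPKM in icKO, against 43.8, 62.0 and 57.5 FPKM in control. For each of the 3 genes every icKO library lay far below every control library, and control replicate 1 was the lowest control. Their differences were -1.65 (SE 0.18), -1.69 (SE 0.18) and -1.78 (SE 0.15), with adjusted p of 0.00112, 0.00109 and 0.000622 (limma, Benjamini-Hochberg).

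Acaca and Fasn, the next enzymes of synthesis, fell by amounts similar to each other. Acaca, the acetyl-CoA carboxylase that makes malonyl-CoA for synthesis, was at 7.84, 8.13 and 7.06 FPKM in icKO nerves and 14.3, 17.7 and 18.5 FPKM in control nerves (difference -1.04, SE 0.11). Fasn, the synthase that assembles palmitate, was at 41.6, 52.2 and 45.0 FPKM in icKO, against 71.5, 104 and 114 FPKM in control (difference -1.02, SE 0.18). The ratio of Fasn to Acaca within a library was 6.03 ± 0.63 in icKO and 5.66 ± 0.60 in control nerves (SD, n = 3 each) and overlapped between the groups (exact permutation test, two-sided p = 0.5). Acacb, the carboxylase isoform at the mitochondrial surface whose malonyl-CoA restrains fatty acid oxidation, was at 3.15 ± 1.34 FPKM in icKO and 3.56 ± 0.83 FPKM in control (limma, adjusted p = 0.606, 95% interval of the difference -0.74 to 0.41). Acacb was 4.69 FPKM in icKO replicate 3 and 2.28 and 2.48 FPKM in the other icKO libraries, and without icKO replicate 3 and control replicate 1 it was called lower (-0.57, adjusted p = 0.0159).

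The regulators in this group went opposite ways. Thrsp, a small nuclear and cytosolic protein of lipogenic cells, was at 1.81, 2.12 and 4.76 FPKM in icKO nerves, against 14.8, 33.3 and 44.8 FPKM in control nerves, the widest difference of the 39 genes (-2.98, SE 0.44, limma adjusted p = 0.00284). Srebf1, which encodes the SREBP-1 transcription factors that drive lipogenic genes, rose instead, at 30.3, 32.1 and 31.8 FPKM in icKO, against 16.8, 20.5 and 20.2 FPKM in control (0.69, SE 0.10, adjusted p = 0.00248). All 3 icKO libraries lay above all 3 control libraries for Srebf1. The FPKM table gives 1 value a gene, so the isoforms SREBP-1a and SREBP-1c were not separated, and the processing of the protein is not seen in RNA.

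Promoter windows from RefSeq (build GRCm38.p6, 250 bases before to 50 bases after an annotated start) were available for 33 of the 39 genes, in 50 windows; Scd1, Scd2, Fads1, Fa2h, Dgat1 and Dgat2 were not matched. Both strands were searched for a 9-letter core of the sterol regulatory element, TCACNCCAC, and for the CCAAT box that NF-Y binds. The core was found in 1 of the 50 windows, that of an alternative start of Acsl1, which is 2.0% against 1.24% of the 32851 windows of all genes. The CCAAT box was found in 24 of the 50 windows (48.0%), against 37.4% of all windows. It was in 10 of 22 windows of genes that fell (45.5%), 3 of 7 windows of genes that rose (42.9%) and 11 of 21 windows of genes that did not pass (52.4%). Some genes have more than 1 window, and windows of a gene can overlap. Counted by gene, the box was found for 10 of 16 that fell, 2 of 5 that rose and 8 of 12 that did not pass. The share by gene over all genes was not computed. The E-box CACGTG was in 6 of the 50 windows (12%, against 7.15% of all), and the GC box GGGCGG in 28 (56.0%, against 35.7% of all). These matches describe letters in a window and not binding.

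Chosen after their values were seen, the windows of the gene with the widest fall, of the synthase, of the cytosolic acetate enzyme and of the gene with the widest rise are shown 5′ to 3′ on the strand of the gene, with CCAAT on either strand (ATTGG where it lies on the other strand) in capitals. Thrsp lies on the minus strand at chr7:97417501-97417800, Fasn on the minus strand at chr11:120824498-120824797, Acss2 on the plus strand at chr2:155517793-155518092 and Elovl4 on the minus strand at chr9:83806256-83806555. Boxes began 79 and 52 bases before the start in Thrsp, 90, 62 and 59 bases before it in Fasn, and 73 bases before it in Acss2. The boxes of Fasn at 62 and 59 bases lie on opposite strands and overlap. The box of Elovl4 lies 25 bases after the start.
Thrsp: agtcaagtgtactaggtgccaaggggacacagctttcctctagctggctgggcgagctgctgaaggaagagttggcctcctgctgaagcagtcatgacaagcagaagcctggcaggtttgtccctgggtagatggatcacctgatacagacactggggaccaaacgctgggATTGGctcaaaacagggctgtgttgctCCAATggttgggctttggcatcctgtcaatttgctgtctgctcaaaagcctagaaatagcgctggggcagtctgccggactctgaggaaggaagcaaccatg
Fasn: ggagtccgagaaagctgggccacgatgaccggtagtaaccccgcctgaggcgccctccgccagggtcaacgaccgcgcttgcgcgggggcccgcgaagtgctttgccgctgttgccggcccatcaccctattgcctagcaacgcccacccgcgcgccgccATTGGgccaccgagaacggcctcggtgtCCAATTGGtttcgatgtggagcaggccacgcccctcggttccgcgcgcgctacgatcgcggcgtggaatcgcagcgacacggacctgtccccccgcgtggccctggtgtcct
Acss2: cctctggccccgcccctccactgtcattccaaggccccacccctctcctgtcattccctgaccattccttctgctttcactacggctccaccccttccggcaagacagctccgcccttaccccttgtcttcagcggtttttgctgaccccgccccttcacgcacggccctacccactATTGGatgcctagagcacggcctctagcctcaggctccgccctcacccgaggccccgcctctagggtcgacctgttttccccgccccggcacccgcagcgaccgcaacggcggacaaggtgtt
Elovl4: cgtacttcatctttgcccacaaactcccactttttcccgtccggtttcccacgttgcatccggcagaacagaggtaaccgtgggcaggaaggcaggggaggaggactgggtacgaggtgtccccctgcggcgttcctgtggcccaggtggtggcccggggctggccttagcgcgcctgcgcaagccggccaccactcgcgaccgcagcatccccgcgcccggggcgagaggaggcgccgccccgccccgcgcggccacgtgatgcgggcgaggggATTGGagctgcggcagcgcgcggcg

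Among the elongases, Elovl6, Elovl7 and Elovl1 fell, Elovl4 rose and Elovl5 did not pass. Elovl6, which extends palmitate to stearate, was at 28.3, 22.5 and 22.1 FPKM in icKO nerves and 85.7, 77.0 and 90.8 FPKM in control nerves (-1.76, SE 0.12, limma adjusted p = 0.00042). Elovl7 was at 22.2, 17.1 and 19.9 FPKM in icKO, against 46.4, 45.2 and 51.5 FPKM in control (-1.24, SE 0.11, adjusted p = 0.000752). Neither gene had an icKO library near the control range. Elovl4, which makes the very long chains known from retina and skin, was at 15.4, 18.1 and 18.1 FPKM in icKO, against 4.04, 3.52 and 5.58 FPKM in control, 3.92 times the control mean (1.77, SE 0.15, adjusted p = 0.000672). It had the widest rise of the 39 genes.

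Elovl1, which lengthens saturated chains to those found in myelin sphingolipids, was at 74.9, 111 and 99.8 FPKM in icKO nerves, against 130, 133 and 137 FPKM in control nerves. It fell by 0.50 (SE 0.15, limma adjusted p = 0.0332), but lost its call when any single control library was left out and under 3 of the other alternative settings (adjusted p = 0.0688 to 0.0962 over the 6). Elovl5, an elongase of polyunsaturated chains, was at 19.2 ± 1.24 FPKM in icKO and 18 ± 2.47 FPKM in control, with overlapping groups (adjusted p = 0.546, 95% interval -0.18 to 0.37). The 5 elongases among the 39 genes summed to 160, 186 and 180 FPKM in icKO, against 281, 279 and 304 FPKM in control. Within that sum Elovl6 held 14.0% in icKO and 29.3% in control on average, and Elovl4 held 9.77% in icKO and 1.51% in control. The Elovl6 to Elovl1 ratio was 0.27 ± 0.10 in icKO and 0.63 ± 0.05 in control (SD, n = 3 each), with no overlap.

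Of the fatty acid desaturases among the 39 genes, Scd1, Fads1 and Fads2 fell and Scd2 did not pass. Scd1, a stearoyl-CoA desaturase that makes oleate and is the main form in liver and fat, was at 115, 129 and 118 FPKM in icKO nerves, against 229, 399 and 452 FPKM in control nerves (-1.51, SE 0.25, limma adjusted p = 0.00395). Scd2, the form known from brain and myelinating cells, was at 146, 121 and 720 FPKM in icKO, against 192, 196 and 196 FPKM in control. The control libraries had an SD of 2.24 FPKM, and icKO replicate 3 lay far above them while the other icKO libraries lay below. With all libraries Scd2 did not pass (0.26, SE 0.63, adjusted p = 0.758), and without icKO replicate 3 it was called lower (-0.55, adjusted p = 0.0108). Control replicate 1, with a summed muscle marker level near that of icKO replicate 3, had Scd2 at 192 FPKM, and the part of muscle tissue in the Scd2 values was not tested. Scd1 and Scd2 are close paralogues that can share reads. The Scd2 to Scd1 ratio was 1.26, 0.94 and 6.10 in icKO, against 0.84, 0.49 and 0.43 in control.

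Fads1 and Fads2, the delta-5 and delta-6 desaturases of polyunsaturated fatty acids, both fell. Fads1 was at 58.7, 70.1 and 57.4 FPKM in icKO nerves and 109, 103 and 116 FPKM in control nerves (-0.81, SE 0.10, limma adjusted p = 0.00188). Fads2 was at 43.5, 36.8 and 52.7 FPKM in icKO, against 84.4, 80.8 and 89.9 FPKM in control (-0.94, SE 0.14, adjusted p = 0.00275). The icKO means were 0.57 and 0.52 times the control means.

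**Figure D3:**
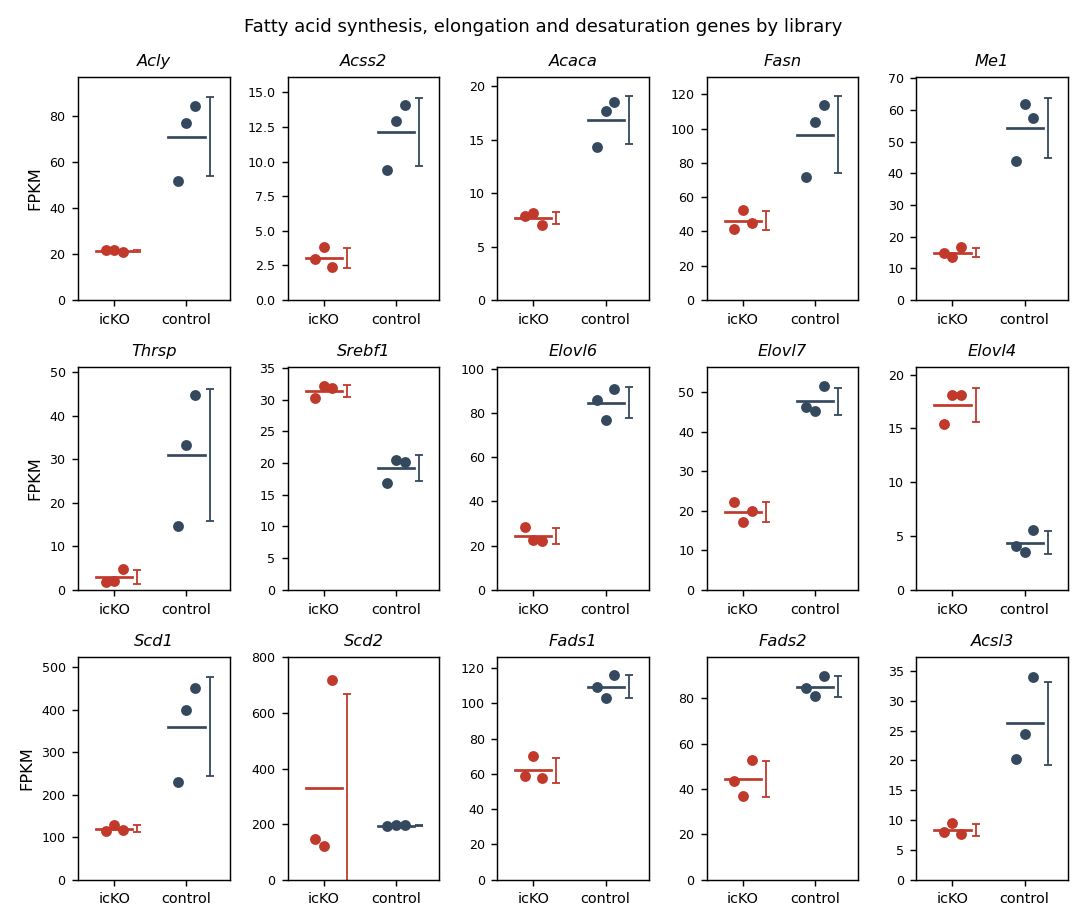
FPKM in each library for 15 genes of fatty acid synthesis, elongation, desaturation and activation, with icKO libraries in red and control libraries in dark blue (linear y axes from 0). Points are libraries, horizontal bars the group means and brackets the SD (n = 3 each), cut off at 0 for Scd2. Srebf1 and Elovl4 lie higher in icKO, Scd2 has 1 icKO library at 720 FPKM, and the other 12 genes lie lower in icKO without overlap.

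Of the 3 acyl-CoA ligases, which activate free fatty acids, 1 fell and 2 did not pass. Acsl3, a ligase of the endoplasmic reticulum and of growing lipid droplets, was at 8.01, 9.47 and 7.61 FPKM in icKO nerves, against 20.3, 24.5 and 33.9 FPKM in control nerves (-1.51, SE 0.19, limma adjusted p = 0.0016). Acsl1, the main ligase of fat and muscle, was at 8.83, 3.36 and 12.1 FPKM in icKO, against 19.7, 11.1 and 17.8 FPKM in control, where icKO replicate 3 overlapped the control range. Its difference of -1.02 (SE 0.42) did not pass (adjusted p = 0.088), and passed without icKO replicate 3 (-1.36, adjusted p = 0.0382). Acsl4, a ligase that prefers arachidonate, was at 2.44 ± 0.35 FPKM in icKO and 3.15 ± 0.81 FPKM in control (adjusted p = 0.247), and was called lower without control replicate 1 (-0.43, adjusted p = 0.0396).

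Of the 14 sphingolipid genes 4 fell, 3 rose and 7 did not pass, shares near those of all tested genes. At the entry step, the serine palmitoyltransferase subunit gene Sptlc1 was at 15.5, 14.9 and 14.8 FPKM in icKO nerves and 14.7, 14.6 and 15.1 FPKM in control nerves, with a 95% interval of the difference of -0.14 to 0.19. Its partner Sptlc2 was at 32.5, 30.4 and 29.2 FPKM in icKO, against 40.7, 35 and 38 FPKM in control. This fall of 0.30 (SE 0.09, limma adjusted p = 0.035) did not pass without icKO replicate 2 or 3, or without control replicate 1 or 3, nor under 5 of the other alternatives (adjusted p = 0.0585 to 0.146 over the 9). Kdsr, the next enzyme, which reduces 3-ketosphinganine, was at 6.38, 7.30 and 5.91 FPKM in icKO, against 5.08, 4.59 and 4.62 FPKM in control. It rose by 0.38 (SE 0.10, adjusted p = 0.0178), and did not pass without control replicate 2 or 3 (adjusted p = 0.0657 and 0.0674).

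The ceramide synthases, which differ in the chain length they attach, moved in opposite directions. Cers2, the synthase of very-long-chain ceramides and the main form in myelinating cells, was at 120, 127 and 95.4 FPKM in icKO nerves, against 218, 213 and 207 FPKM in control nerves (-0.91, SE 0.12, limma adjusted p = 0.00199). Cers5, which attaches shorter chains such as palmitate, was at 31.4, 30.3 and 26.3 FPKM in icKO, against 20.5, 19.6 and 21.2 FPKM in control (0.50, SE 0.09, adjusted p = 0.0062). Both genes had groups that did not overlap. Cers4 was at 9.77 ± 0.47 FPKM in icKO and 10.7 ± 1.04 FPKM in control (adjusted p = 0.345). Cers6, another synthase for palmitate, was at 0.97, 1.14 and 0.62 FPKM in icKO, against 0.84, 1.34 and 1.23 FPKM in control (adjusted p = 0.408), and neither gene passed.

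The 4 ceramide synthases among the 39 genes, leaving out Cers1, summed to 162, 168 and 131 FPKM in icKO nerves and 251, 243 and 241 FPKM in control nerves. Cers2 made up 73.8%, 75.3% and 72.5% of this sum in icKO, against 87.0%, 87.5% and 86.0% in control. Cers5 made up 19.4%, 18% and 20% in icKO, against 8.19%, 8.04% and 8.78% in control. These shares do not depend on how a library was scaled, and they varied little within each genotype. The Cers2 to Cers6 ratio was 130 ± 22.1 in icKO and 195 ± 54.8 in control (SD, n = 3 each), and rests on the low level of Cers6.

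**Figure D4:**
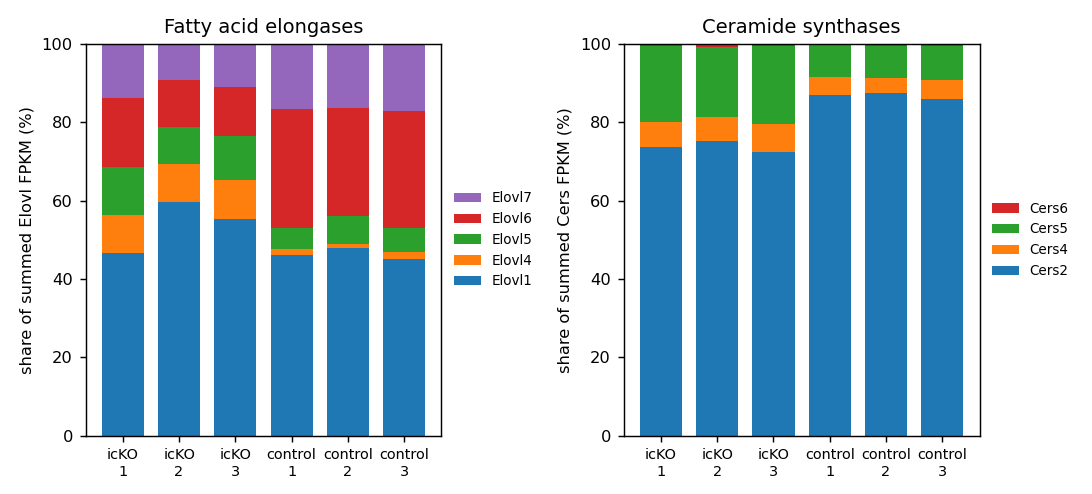
Share of each member in the summed FPKM of the 5 fatty acid elongases (left) and of Cers2, Cers4, Cers5 and Cers6 (right), in percent, for icKO replicates 1 to 3 and control replicates 1 to 3. Elovl6 averages 14.0% in icKO and 29.3% in control, Elovl4 9.77% in icKO and 1.51% in control, Cers2 73.9% in icKO and 86.8% in control, and Cers5 19.1% in icKO and 8.34% in control.

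Past ceramide, the myelin branch was lower and the glucosylceramide branch higher at their first enzymes. Ugt8a, the galactosyltransferase that makes galactosylceramide, was at 317, 266 and 237 FPKM in icKO nerves, against 419, 380 and 425 FPKM in control nerves. It fell by 0.59 (SE 0.12, limma adjusted p = 0.0104), with adjusted p up to 0.0478 over the 20 alternatives. Ugcg, the glucosyltransferase, was at 5.26, 4.72 and 5.54 FPKM in icKO, against 3.34, 3.68 and 3.71 FPKM in control (0.43, SE 0.09, adjusted p = 0.00844). The Ugt8a to Ugcg ratio within a library was 60.2, 56.3 and 42.8 in icKO, against 125, 103 and 115 in control, so galactosyltransferase transcripts remained far more abundant per length in all 6 libraries.

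Gal3st1, Fa2h and Degs1 did not pass. Gal3st1, which sulphates galactosylceramide, was at 88.0, 70.3 and 100 FPKM in icKO nerves and 94.5, 88.4 and 90.1 FPKM in control nerves (95% interval -0.41 to 0.23). Fa2h, which makes the 2-hydroxylated fatty acids of myelin, was at 271, 301 and 213 FPKM in icKO, against 362, 289 and 211 FPKM in control (limma adjusted p = 0.702, 95% interval -0.63 to 0.41). The groups overlapped for both genes, and the Fa2h difference turned positive when control replicate 1 or icKO replicate 3 was left out. Degs1, the desaturase that turns dihydroceramide into ceramide, was at 60.9, 39.4 and 34.6 FPKM in icKO, against 42.6, 40.6 and 75 FPKM in control. Its spread was wide in both genotypes (adjusted p = 0.593).

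Of the sphingomyelin synthases, 1 fell and 1 did not pass. Sgms1, the Golgi form, was at 5.46, 6.60 and 5.02 FPKM in icKO nerves, against 8.4, 9.87 and 9.31 FPKM in control nerves (-0.61, SE 0.11, limma adjusted p = 0.00608). Sgms2, the form also found at the plasma membrane, was at 2.13, 1.81 and 2.63 FPKM in icKO, against 1.74, 2.44 and 2.07 FPKM in control (adjusted p = 0.791, 95% interval -0.27 to 0.37). The Sgms1 to Sgms2 ratio was 2.71 ± 0.88 in icKO and 4.47 ± 0.39 in control (SD, n = 3 each).

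Of the 5 glycerolipid genes 2 fell and 3 did not pass, with a median difference of 0.03 and a mean of -0.46, which differ in sign. Agpat2, an acyltransferase that fat cells need to make phosphatidic acid, was at 12, 13.6 and 7.14 FPKM in icKO nerves, against 19.5, 28.0 and 31.6 FPKM in control nerves (-1.22, SE 0.26, limma adjusted p = 0.0106). Dgat2, which adds the last acyl chain of newly made triglyceride, was at 3.76, 5.20 and 6.02 FPKM in icKO, against 13.1, 23.1 and 27.0 FPKM in control (-1.84, SE 0.27, adjusted p = 0.00297). Dgat1, the other enzyme of that last step, was at 7.92, 7.81 and 7.93 FPKM in icKO, against 7.37, 8.62 and 7.13 FPKM in control (95% interval -0.18 to 0.24). The Dgat2 to Dgat1 ratio was thus 0.48, 0.67 and 0.76 in icKO, against 1.77, 2.68 and 3.79 in control.

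Gpam, the mitochondrial acyltransferase of the first step, was at 17.9 ± 6.17 FPKM in icKO and 13.8 ± 1.35 FPKM in control nerves (SD, n = 3 each), with icKO replicate 3 the highest at 24.9 FPKM (limma adjusted p = 0.285). Lpin1, the phosphatidate phosphatase lipin 1, was at 4.71, 4.74 and 6.27 FPKM in icKO, against 5.32, 2.85 and 3.10 FPKM in control. Control replicate 1 overlapped the icKO range, and Lpin1 was called higher without it (0.64, adjusted p = 0.0179), while with all libraries it did not pass (0.42, adjusted p = 0.144).

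**Figure D5:**
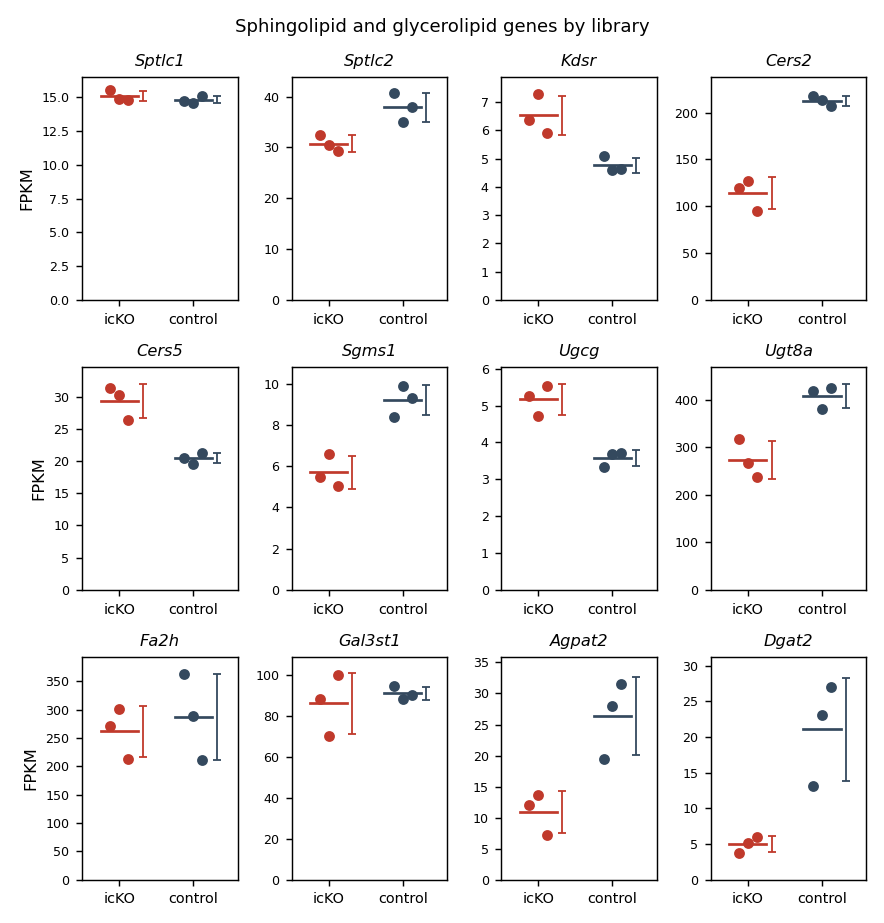
FPKM in each library for 10 sphingolipid and 2 glycerolipid genes, with icKO libraries in red and control libraries in dark blue (linear y axes from 0). Points are libraries, horizontal bars the group means and brackets the SD (n = 3 each). Kdsr, Cers5 and Ugcg lie higher in icKO, Sptlc2, Cers2, Sgms1, Ugt8a, Agpat2 and Dgat2 lie lower, and the groups overlap for Sptlc1, Fa2h and Gal3st1.

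Ratios of 8 pairs of related enzymes were compared within libraries, where scaling cancels. The groups did not overlap for 7 of the 8. Among all tested genes taken singly 57.2% did not overlap, and the share for other gene pairs was not computed. The pairs were chosen with earlier results of these data known. The 7 ratios had exact permutation p = 0.1 (two-sided), the smallest that 3 libraries against 3 can give. Their Benjamini-Hochberg adjusted p was 0.114, so none of the 8 passed. The widest log2 differences were -2.08 for Dgat2 to Dgat1, 1.78 for Scd2 to Scd1 (0.95 without icKO replicate 3), -1.30 for Elovl6 to Elovl1 and -1.12 for Ugt8a to Ugcg. The difference was 0.33 for Sptlc1 to Sptlc2, -0.77 for Sgms1 to Sgms2 and -0.57 for Cers2 to Cers6, which was -0.35 without control replicate 1.

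Other genes of the same pathways, listed by function, are read against the 22.1% of all tested genes that fell and the 20.8% that rose. Of 18 tested genes of fatty acid synthesis, elongation and activation outside the 39, 8 fell (44.4%) and 1 rose (5.56%). Acsbg1, a very-long-chain acyl-CoA synthetase, was at 0.42, 0.29 and 0.23 FPKM in icKO nerves, against 2.30, 2.76 and 2.88 FPKM in control nerves, and Hacd4, a dehydratase of the elongation cycle, averaged 0.49 FPKM in icKO and 1.70 FPKM in control. The gene that rose was Acss1, the mitochondrial acetyl-CoA synthetase, at 16.9, 19.4 and 16.7 FPKM in icKO, against 6.35, 6.32 and 5.69 FPKM in control (1.39, SE 0.09, limma adjusted p = 0.000375). It moved opposite to the cytosolic enzyme Acss2. Slc25a1, the citrate carrier that exports the substrate of Acly from mitochondria, fell to 61.4 ± 4.39 FPKM in icKO, against 110 ± 4.18 FPKM in control (SD, n = 3 each); it was named after its values were seen.

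Of 13 tested regulators of lipogenesis 6 fell (46.2%) and 2 rose (15.4%). Nr1h3, the liver X receptor alpha gene, was at 4.91, 4.81 and 3.91 FPKM in icKO nerves, against 10.2, 10.4 and 10.4 FPKM in control nerves (-1.04, SE 0.09, limma adjusted p = 0.000752). Its widely expressed paralogue Nr1h2, liver X receptor beta, was at 32.7, 35.4 and 32.8 FPKM in icKO, against 19.4, 18.7 and 17.9 FPKM in control (0.82, SE 0.08, adjusted p = 0.000769). Their partner Rxra rose to 20.6 ± 3.65 FPKM in icKO, against 10.9 ± 0.81 FPKM in control. Pparg, the receptor that drives fat cell formation, fell to 1.91 ± 0.40 FPKM in icKO, against 4.51 ± 0.22 FPKM in control. Srebf2, which encodes SREBP-2, the regulator of cholesterol synthesis, fell to 32.4 ± 1.67 FPKM in icKO, against 51.8 ± 0.84 FPKM in control (-0.66, SE 0.08, adjusted p = 0.00125), opposite to Srebf1. Srebf2 was named after its values were seen.

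Of 10 tested further genes of sphingolipid synthesis, 1 fell (10%) and 3 rose (30%). B4galnt1, which extends gangliosides to their complex forms, was at 12.6, 11.0 and 10.1 FPKM in icKO nerves, against 4.13, 3.32 and 2.72 FPKM in control nerves (1.49, SE 0.14, limma adjusted p = 0.000769). Cers1, a ceramide synthase of neurons and muscle that attaches stearate, was at 7.09, 4.98 and 11.8 FPKM in icKO, against 2.71, 2.21 and 2.09 FPKM in control (1.36, SE 0.26, adjusted p = 0.00748). Cers1 shares a transcript with the growth factor gene Gdf1, so its level is uncertain. B4galt6, a lactosylceramide synthase, fell to 7.47 ± 0.56 FPKM in icKO, against 12 ± 0.97 FPKM in control.

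Of 16 tested genes that break down or phosphorylate sphingolipids, 5 fell (31.2%) and 4 rose (25%), near the shares of all tested genes. Sphk1, a sphingosine kinase, was at 3.42, 6.48 and 16.3 FPKM in icKO nerves, against 0.43, 0.52 and 0.48 FPKM in control nerves (2.49, SE 0.45, limma adjusted p = 0.00573). Smpd2, a neutral sphingomyelinase, rose to 11.2 ± 0.79 FPKM in icKO, against 5.20 ± 0.45 FPKM in control. Arsa, the arylsulphatase that degrades sulphatide, fell to 3.74 ± 0.84 FPKM in icKO, against 8.17 ± 0.81 FPKM in control. Aldh3a2, a fatty aldehyde dehydrogenase, fell to 12.9 ± 0.11 FPKM in icKO, against 17.2 ± 0.93 FPKM in control.

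Of 28 tested further genes of glycerolipid and phospholipid synthesis, 13 fell (46.4%) and 2 rose (7.14%). Pcyt1b, which joins phosphocholine to CTP on the way to phosphatidylcholine, was at 3.22, 3.48 and 2.39 FPKM in icKO nerves, against 9.97, 9.57 and 10.1 FPKM in control nerves (-1.44, SE 0.12, limma adjusted p = 0.000607). Gpat3, an acyltransferase of the first step that fat cells express, was at 0.95 ± 0.09 FPKM in icKO and 3.85 ± 0.90 FPKM in control. The genes that rose were the choline kinases Chka, at 4.60 ± 0.49 FPKM in icKO and 2.06 ± 0.17 FPKM in control, and Chkb, at 9.78 ± 0.44 FPKM in icKO and 6.36 ± 0.63 FPKM in control (SD, n = 3 each). Choline kinase acts 1 step before Pcyt1b in the same pathway.

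Control replicate 1 sat closest to the icKO nerves in the fatty acid genes. Among the 13 fatty acid genes that fell, it was the lowest control library in 9, and control replicate 2 was the lowest in the other 4. The mean log2 level of the 8 fatty acid synthesis genes was 3.40, 3.50 and 3.62 in icKO libraries, against 4.34, 4.85 and 4.95 in control libraries. It was also low in fibroblast markers, with a mean log2 level of 5.52 against 6.42 and 6.29 in control replicates 2 and 3, and in macrophage markers, at 2.58 against 3.66 and 3.51. The icKO libraries were at 5.38 to 5.56 in fibroblast and 2.96 to 3.02 in macrophage markers. In adipocyte markers control replicate 1 was the lowest control by mean log2 level, at 3.71 against 3.87 and 3.83, but not by summed FPKM, at 590 against 607 and 502. The part of these cell types in the level of control replicate 1 was not tested. Without control replicate 1 and icKO replicate 3, the libraries with the most muscle transcript, 20 of the 39 genes fell and 6 rose. Of all 12829 genes tested in that setting, 2719 fell and 2135 rose. With the mean level of 19 muscle markers as a covariate 17 of the 39 fell and 6 rose. Of all 12860 genes tested, 2500 fell and 2456 rose with that covariate.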

How the data were processed

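Sample labels gave each library its genotype and number. What the authors deposited is FPKM, 55335 genes by 6 libraries, with columns matched to samples by name. The build GRCm39 and the tools StringTie 1.3.1c, STAR, DESeq2 1.16.1 and FastQC 0.11.2 appear in the submitters' processing notes without a role. The annotation release and how strand and multiply mapped reads were handled are unknown. Symbols came from GENCODE M21 by gene ID. Per-library depth was estimated from the most frequent product of low FPKM and transcript length. No counts were recovered, so no count model was used. Stretches of near-identical sequence can share fragments between paralogues.

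The genes that averaged 1 FPKM or more were fitted on log2(FPKM + 1) by limma 3.58.1 (R 4.3.3), using a variance trend and no covariate, and p-values were adjusted by Benjamini-Hochberg over 12860 genes. The same procedure was tested on simulated data. P-values weigh a group difference against the spread between these libraries, which may be technical. In limma that spread is moderated across genes. Enzyme ratios were compared by exact permutation. The members, lists, ratios and alternatives were chosen with earlier results of these data known. Values in every library are given for called members with a difference of at least 1, called rises and the most abundant member of each role. They are also given for Srebf1, Fasn, Ugt8a, Cers2 and both genes of each ratio. From the lists of other pathway genes, the 2 largest called rises and falls are named. Cell type markers were not named by this rule. Further values are given for members whose call depended on a library. Of 225 list entries 224 were matched. Protein sequences were not analysed here.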

Additional observations from a re-analysis of the deposited data

How the results depend on the processing

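Over 20 alternative settings, 17 to 20 of the 39 genes fell and 4 to 6 rose. Among all genes, 1612 to 3456 fell and 1696 to 3273 rose, of 6888 to 30465 tested. Of the 24 calls, 21 held in every alternative in which the gene was tested, and those of Elovl1, Sptlc2 and Kdsr were lost in at least 1; none reversed. With a filter of 5 FPKM 3308 genes were called in all, since 6888 were tested, and without single libraries 3728 to 5476. Without control replicate 3, 3728 genes passed, against 5516 with all libraries. Among the 39 genes, none called with all libraries changed sign, but some uncalled ones did, and the cause was not tested. These were Fa2h with array weights (0.048), Gal3st1 with the muscle covariate (0.003), and, without both control replicate 1 and icKO replicate 3, Elovl5 (-0.053), Scd2 (-0.56), Sgms2 (-0.13), Fa2h (0.21) and Gpam (-0.008). Leaving out single libraries gave -0.018 (control replicate 1) to 0.162 for Elovl5, -0.547 (icKO replicate 3) to 0.734 for Scd2, -0.445 to 0.07 (control replicate 3) for Degs1, and -0.049 (icKO replicate 3) to 0.136 for Sgms2, which was -0.034 without control replicate 1. It gave -0.207 to 0.045 (icKO replicate 2) for Gal3st1, -0.317 to 0.071 (control replicate 1) for Fa2h, which was 0.027 without icKO replicate 3, 0.057 to 0.477 for Gpam, and -0.014 (control replicate 3) to 0.108 for Dgat1. Acacb, Acsl1, Acsl4 and Lpin1, not called with all libraries, were called in at least 1 alternative.

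Deviations from group means across genes had correlations of -0.10, 0.04 and -0.06 between same-numbered libraries. With 3 libraries a group these values cannot decide whether the numbers pair the samples, and the labels do not say. With the replicate block 19 of the 39 genes fell and 5 rose, and 4596 genes passed in all. For the ratios, sign flips within same-numbered pairs gave p = 0.25 at the smallest (exact permutation). No ratio changed direction when a library was left out, with a pseudocount of 1 or with the block. Genes that did not pass are not shown to be unchanged, and their intervals give the differences these libraries allow.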
